A study of Rattus norvegicus with 8 samples.

Results

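The enzymes of the methionine cycle and of transsulfuration were followed in rat liver under high-fat diet and standard chow. The group was fixed by name and holds 9 genes: Mat1a, Mat2a, Ahcy, Bhmt, Gnmt, Cbs, Cth, Mtr and Pemt. Together they have 10 probes on the array, 2 of them for Mat2a and 1 for each other gene, out of 22873 features tested (1 probe per gene where a gene had several) and 30367 probes on the array. All 9 genes and all 10 probes passed the filter on dim probes, which asked for 3 or more of the 8 arrays to show a signal well above background, whatever the diet. The samples were liver tissue of male rats aged 22 weeks, taken after 14 weeks of feeding, with no strain given in the sources used here. High-fat diet was fed in 5 samples, whose disease state the labels give as NAFLD (non-alcoholic fatty liver disease), and standard chow in the 3 control samples. Each sample was hybridised to its own single-colour array, and the labels do not say that each came from a different animal, so p-values cover only the spread among the samples given, which may be technical.

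The methionine cycle turns methionine into S-adenosylmethionine (SAM), the methyl donor of the cell, through methionine adenosyltransferases. Methyltransferases spend SAM and leave S-adenosylhomocysteine (SAH), which is split to homocysteine. Homocysteine is either methylated back to methionine, with betaine or a folate as the donor, or condensed with serine and passed through cystathionine to cysteine, the step called transsulfuration. Liver holds most of the body's capacity for this cycle, and it is the main site where SAM is used to make phosphatidylcholine and to dispose of excess methyl groups.

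Values are log2 processed signals relative to the 75th percentile of the same array, so 0 marks that percentile. Probes differ in how well they bind, so a value is compared between arrays and never with that of another probe. Before this scaling the 75th percentile itself was 856 ± 134 intensity units under high-fat diet (SD, n = 5) and 379 ± 156 under chow (SD, n = 3), and 66.9% to 92.7% of probes were well above background per array. On chow arrays 1 to 3 it was 300, 559 and 278, so chow array 2 was scaled by a larger value than the other chow arrays. Both array measures were higher on every high-fat array (exact permutation test, two-sided, p = 0.0179 for each, the smallest that 56 splits allow, and 0.0179 after adjustment over the 2). The arrays lay on 3 slides, taken from arrays that share a scan start: high-fat arrays 1 and 4 on the first, high-fat arrays 2, 3 and 5 on the second, and all 3 chow arrays on the third. Slide and diet therefore cannot be told apart in any comparison of high-fat diet with chow. The 8 hepatocyte markers, Alb and Ttr among them, were detected and 0 passed the test (limma, adjusted p under 0.05; 3 at an unadjusted p under 0.05), but all 8 fold changes were below 0, with a median of −0.37. Their summed level, as the mean deviation per array, ran from −0.22 to 0.03 on high-fat arrays and on chow it was 0.38, −0.11 and 0.42. Alb, Ttr, Tf, Fgb and Serpina1 were bright, averaging 6.49 to 7.13 under high-fat diet, while Hnf4a averaged −0.30. Fold changes were below 0 for 50.5% of all features and for 79.0% of the brightest 10% by mean signal. In that brightest 10% the median was −0.24, and 24.7% were lower at an unadjusted p under 0.05. Markers of Kupffer cells (7 tested, median 0.13), sinusoidal endothelium (4, −0.12), cholangiocytes (5, −0.01), stellate cells (6, −0.02), lymphocytes (5, 0.01) and pancreas (4, 0.56), and the adipose marker tested (Lep, 0.72, not well above background on chow), held 0 genes that passed in limma, 1 Kupffer, 2 stellate and 1 pancreas gene being at an unadjusted p under 0.05. Over all features 3.56% passed and 20.2% were at such an unadjusted p, in either direction. The pancreas gene at that p, Amy2a3, was well above background on 0 chow arrays, as was Pnlip, and Cela1 on 1. The part of these marker shifts in the results below was not tested, nor was the part of signal level in the marker shifts. In whole liver, fewer cells of a type and less RNA per cell cannot be told apart.

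No enzyme of the group passed the test. Of the 9 genes, 0 reached an adjusted p under 0.05 in limma (Benjamini-Hochberg over all features), against 3.56% of all features in either direction. At an unadjusted p under 0.05 there were 4, each with a lower mean under high-fat diet: Gnmt, Pemt, Cbs and Cth. For this looser count the background was 20.2% of all features in either direction and 9.37% on the lower side. In the same 4 genes every high-fat array lay below every chow array, which held for 9.17% of all features. Fold changes were below 0 for 7 genes and above 0 for Mat2a and Mtr, and the median over the 9 was −0.44, against −0.01 over all features, of which 50.5% were below 0. The sign of Mat1a turned with the scaling (0.14 under quantile normalization), that of Mtr with normexp background correction (−0.69), and that of Cth with both together (0.035). The 7 genes with negative values are also the 7 whose probes lie in the brightest 10% of the features by mean signal. In that 10% (2288 features) the median was −0.24, 79.0% of fold changes were below 0 and 23.0% of features had every high-fat array below every chow array. There 24.7% of features were lower at an unadjusted p under 0.05 and 0.962% at an adjusted one. The 7 bright enzymes had a median of −0.55.

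**Figure D1:**
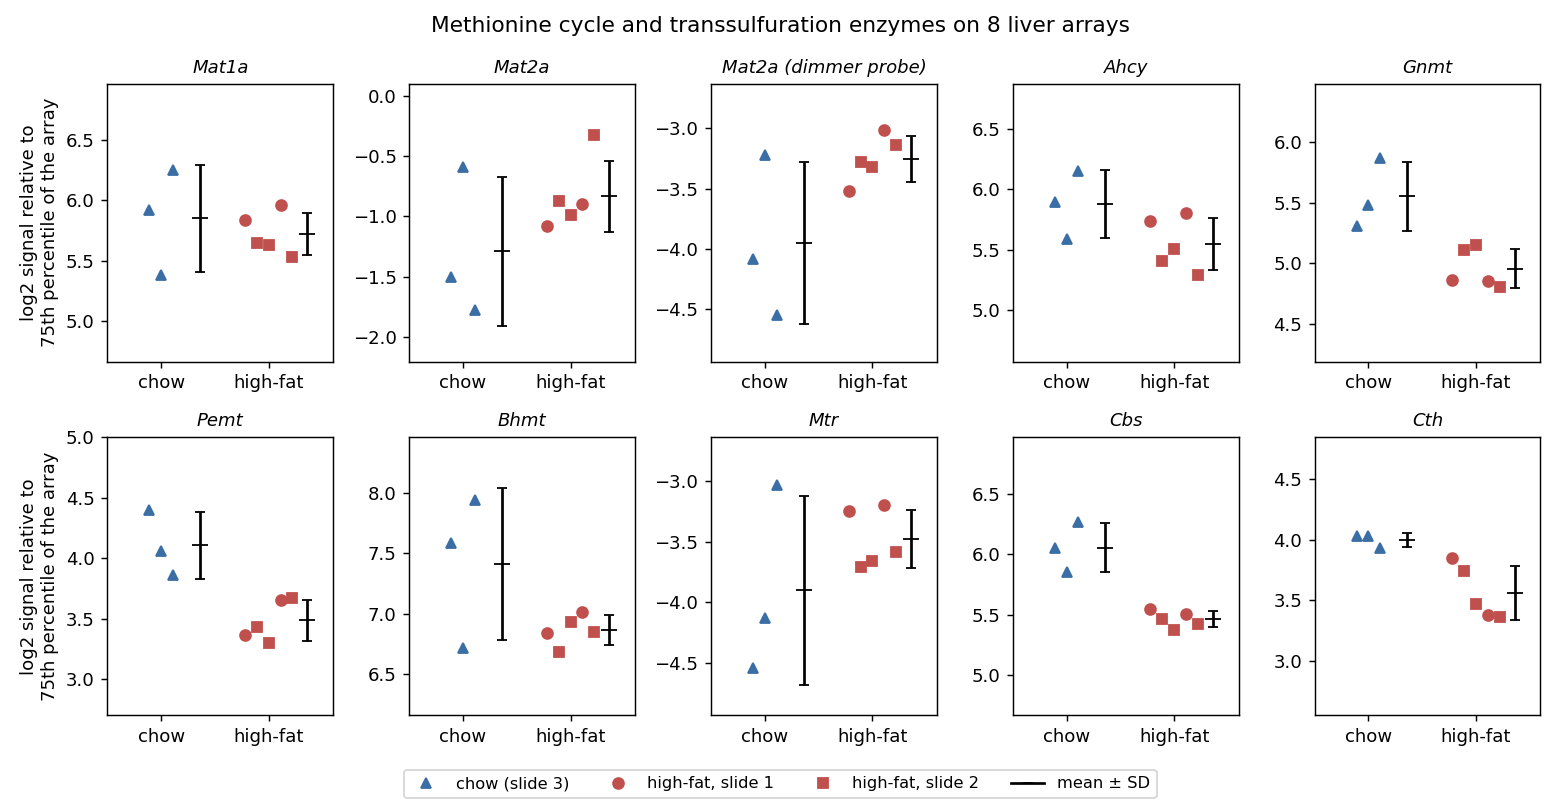
Each panel shows 1 probe of an enzyme, with the log2 signal relative to the array's 75th percentile on the y axis, chow arrays as triangles and high-fat arrays as circles (slide 1) or squares (slide 2), and the mean ± SD of each diet beside them. All panels span the same range in log2 units. Gnmt, Pemt, Cbs and Cth show high-fat points that all lie below the chow points at this scaling, while in the other panels the diets overlap.

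The start regions of the 4 genes whose arrays did not overlap are shown so that the letters behind the motif counts can be seen. They are the 250 bases before each RefSeq start on the rat assembly GRCr8, 5′ to 3′ in the direction of the gene, with matches to a searched motif in capitals. Gnmt is at chr9:21752032-21752281 on the plus strand, Pemt at chr10:45341948-45342197 on the minus strand, Cbs at chr20:9733926-9734175 on the minus strand and Cth at chr2:249661067-249661316 on the minus strand.
Gnmt: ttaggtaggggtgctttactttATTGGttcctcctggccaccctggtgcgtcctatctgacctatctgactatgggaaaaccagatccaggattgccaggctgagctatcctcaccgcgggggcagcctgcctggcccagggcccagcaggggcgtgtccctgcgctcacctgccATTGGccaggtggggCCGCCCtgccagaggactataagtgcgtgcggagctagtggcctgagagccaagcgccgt
Pemt: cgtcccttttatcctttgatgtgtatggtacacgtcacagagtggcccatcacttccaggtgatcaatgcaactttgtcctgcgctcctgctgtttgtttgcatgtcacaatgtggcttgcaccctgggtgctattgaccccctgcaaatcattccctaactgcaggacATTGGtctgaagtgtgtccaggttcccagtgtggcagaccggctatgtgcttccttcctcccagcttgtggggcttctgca
Cbs: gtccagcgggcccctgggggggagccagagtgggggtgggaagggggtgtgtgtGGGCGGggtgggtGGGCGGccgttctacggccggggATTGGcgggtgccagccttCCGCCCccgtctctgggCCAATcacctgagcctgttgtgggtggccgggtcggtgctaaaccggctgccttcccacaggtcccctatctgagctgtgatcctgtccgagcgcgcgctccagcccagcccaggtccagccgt
Cth: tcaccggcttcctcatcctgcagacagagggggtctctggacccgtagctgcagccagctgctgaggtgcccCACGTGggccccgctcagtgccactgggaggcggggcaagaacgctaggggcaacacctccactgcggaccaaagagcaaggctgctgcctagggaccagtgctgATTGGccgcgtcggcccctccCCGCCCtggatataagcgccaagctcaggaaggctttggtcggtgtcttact
Motifs were searched on both strands, and none of the matches shown overlap. The CCAAT motif stands in all 4 windows and in 7 of the 9 enzymes' windows, against 34.0% of 33469 rat promoter windows of the same length. GGGCGG was found in Gnmt, Cbs (3 matches) and Cth but not in Pemt, and in 6 of the 9 windows against 30.5% of all. CACGTG has 1 match, in Cth, and is in 5.59% of all windows. TATAAA was found in Bhmt and Mat2a (12.9% of all windows). The motif TGATGNAAT, in 0.944% of all windows, and the motif TGACGTCA, in 1.59%, had no match in the 9 windows. The number of CG pairs was 17 in Cbs, 13 in Cth, 10 in Gnmt and 4 in Pemt, with a median of 5 and quartiles of 2 and 15 over all windows. The 2 methionine adenosyltransferase genes differed widely here, with 3 CG pairs for Mat1a and 29 for Mat2a. Ahcy had 15, Mtr 14 and Bhmt 8. The motif shares over all windows were not matched for the number of CG pairs, whose part in the motif counts was not tested. A match is a description of these letters and not a bound site.

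SAM is made by methionine adenosyltransferase, which in adult hepatocytes is mostly the product of Mat1a, while Mat2a encodes the form found in other tissues and in growing or injured liver. Mat1a had values of 5.83, 5.65, 5.63, 5.97 and 5.54 on high-fat arrays 1 to 5 and of 5.92, 5.38 and 6.25 on chow arrays 1 to 3, an order kept below. Chow arrays 2 and 3 thus held both the lowest and the highest value, and the diets overlapped. The means were 5.72 ± 0.17 (SD, n = 5) and 5.85 ± 0.44 (SD, n = 3), a log2 difference of −0.13 ± 0.21 (SE), with a 95% interval of −0.61 to 0.36 (limma adjusted p = 0.796).

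The brighter Mat2a probe read −1.08, −0.87, −0.99, −0.90 and −0.33 on the high-fat arrays and −1.50, −0.59 and −1.77 on the chow arrays. Chow arrays 1 and 3 were the lowest of the 8, and chow array 2 lay among the high-fat arrays. Means of −0.83 ± 0.29 (SD, n = 5) and −1.29 ± 0.62 (SD, n = 3) differed by 0.46 ± 0.29 (SE; 95% interval −0.20 to 1.11; limma adjusted p = 0.421). Dropping chow array 2 gave 0.80, and dropping chow array 3 gave 0.21. The dimmer Mat2a probe gave −3.52, −3.28, −3.32, −3.02 and −3.14 against −4.08, −3.22 and −4.55, and its signal on chow array 3 was not well above background. It showed the same order of arrays at the low end and a difference of 0.70 ± 0.28 (SE; 95% interval 0.06 to 1.34; limma adjusted p = 0.214 over 25629 probes, of which 3.45% passed). Neither probe passed, and both differences were above 0. Subtracting Mat2a from Mat1a within each array removes the factor by which the whole array was scaled, but not shifts that differ with signal level. The result averaged 6.56 ± 0.42 under high-fat diet and 7.14 ± 1.05 under chow. The means differed by −0.58 with overlapping arrays (exact permutation test, two-sided, p = 0.268, adjusted over 4 such pairs 0.5). Dropping chow array 2 gave −1.17, and dropping chow array 3 gave −0.14.

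Gnmt and Pemt spend SAM. Gnmt (glycine N-methyltransferase) methylates glycine and is a major outlet for surplus SAM in liver. Its values were 4.86, 5.11, 5.15, 4.85 and 4.80 on the high-fat arrays and 5.31, 5.48 and 5.87 on the chow arrays. Every high-fat array lay below every chow array, with the nearest pair being high-fat array 3 and chow array 1. The difference was −0.60 ± 0.17 (SE; 95% interval −0.996 to −0.20), a 1.51-fold lower mean, and it did not pass (limma, unadjusted p = 0.00791, adjusted p = 0.106). Pemt (phosphatidylethanolamine N-methyltransferase) makes phosphatidylcholine with methyl groups from SAM. Pemt read 3.37, 3.44, 3.30, 3.65 and 3.68 under high-fat diet and 4.40, 4.06 and 3.86 under chow, again without overlap. This was the largest difference in size among the probes used for the 9 genes, at −0.62 ± 0.17 (SE; 95% interval −1.02 to −0.23; 1.54-fold lower; limma, unadjusted p = 0.00645, adjusted p = 0.0957). Within arrays, Gnmt minus Pemt was 1.47 ± 0.31 (SD, n = 5) under high-fat diet and 1.45 ± 0.55 (SD, n = 3) under chow, and the spread of both groups was far larger than the difference of 0.02 (exact permutation test, two-sided, p = 0.946, adjusted 0.946).

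Ahcy (adenosylhomocysteinase) splits SAH, an inhibitor of methyltransferases, into homocysteine and adenosine. Its values of 5.74, 5.40, 5.51, 5.80 and 5.29 on the high-fat arrays overlapped 5.89, 5.59 and 6.15 on the chow arrays, because high-fat arrays 1 and 4 lay above chow array 2. The difference was −0.33 ± 0.19 (SE; 95% interval −0.76 to 0.095; limma adjusted p = 0.363).

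Homocysteine is remethylated by Bhmt, which takes a methyl group from betaine and is abundant in liver, or by Mtr, the cobalamin-dependent methionine synthase that uses methyltetrahydrofolate. Bhmt was 6.84, 6.68, 6.93, 7.02 and 6.85 under high-fat diet and 7.59, 6.72 and 7.94 under chow. At this scaling the high-fat arrays kept within a narrow range (SD 0.12, n = 5), chow arrays 1 and 3 lay well above them, and chow array 2 lay inside them. Before scaling, the Bhmt signal on chow arrays 1 to 3 was 57642, 58766 and 68191 intensity units. The 75th percentiles of those arrays were 300, 559 and 278. The part of the scaling in the place of chow array 2 was not tested. With chow array 2 in the comparison the difference was −0.55 ± 0.26 (SE; 95% interval −1.14 to 0.04; limma adjusted p = 0.277). It rested on single chow arrays, being −0.90 without chow array 2 (limma adjusted p = 0.0526) and −0.29 without chow array 3 (0.666). Mtr had a dim probe, above background on all 8 arrays, with values of −3.25, −3.71, −3.66, −3.20 and −3.58 against −4.54, −4.13 and −3.03. Chow arrays held both its lowest and its highest values, and the difference was 0.42 ± 0.32 (SE; 95% interval −0.32 to 1.16; limma adjusted p = 0.519). Without chow array 1 it was 0.10, and without chow array 3 it was 0.85.

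Bhmt and Mtr, the alternative routes from homocysteine to methionine, were the pair whose within-array difference did not overlap between diets. Bhmt minus Mtr was 10.09, 10.39, 10.59, 10.21 and 10.44 on the high-fat arrays and 12.13, 10.85 and 10.97 on the chow arrays. At this scaling every chow array lay above every high-fat array. The diets differed by −0.97, from 11.3 ± 0.71 (SD, n = 3) under chow to 10.3 ± 0.20 (SD, n = 5) under high-fat diet. Its exact permutation p was 0.0179, the smallest these group sizes can give, and 0.0714 after adjustment over the 4 pairs. A pair that alone reaches the smallest p cannot adjust to under 0.05, whatever its difference, so not passing decides nothing here. Without chow array 1 the difference was −0.56, and under quantile normalization it was −0.39, with overlapping arrays. With normexp background correction, which changes dim probes such as Mtr most, the difference was 0.25, in the other direction.

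**Figure D2:**
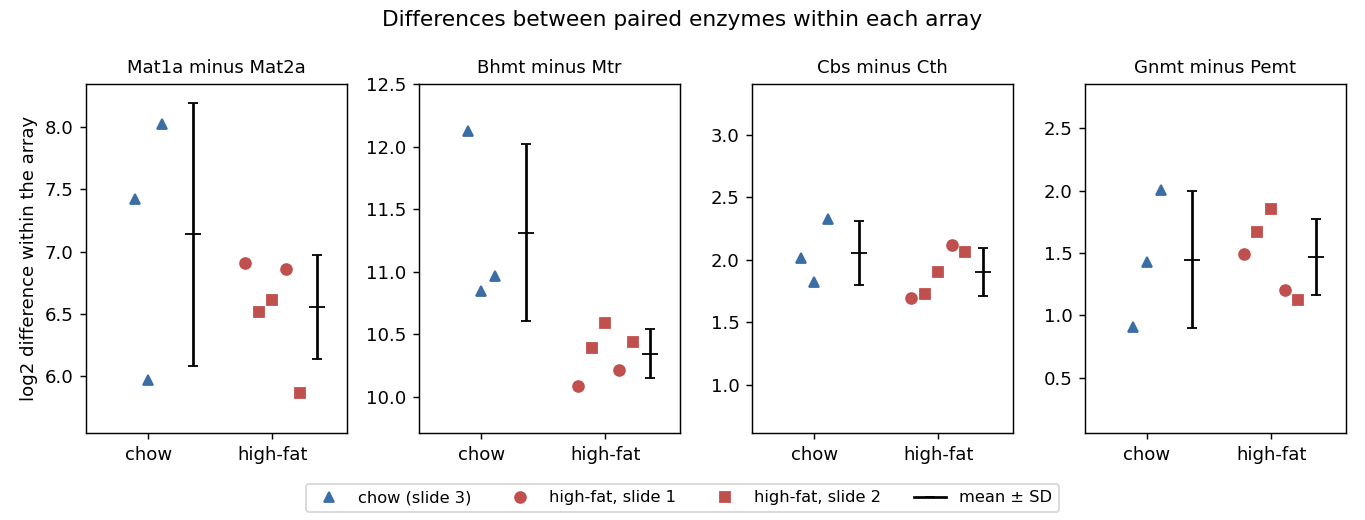
The y axes give the log2 difference between the paired enzymes within each array, with chow arrays as triangles, high-fat arrays as circles (slide 1) or squares (slide 2), and bars for the mean ± SD of each diet. Only in the panel of Bhmt minus Mtr do the chow arrays, at 10.8 to 12.1, all lie above the high-fat arrays, at 10.1 to 10.6.

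Transsulfuration starts with Cbs (cystathionine beta-synthase), which joins homocysteine to serine, and ends with Cth (cystathionine gamma-lyase), which releases cysteine; both can also make hydrogen sulfide. Cbs had the tightest groups of the 9 genes under high-fat diet: 5.54, 5.47, 5.37, 5.50 and 5.43, against 6.05, 5.85 and 6.26 under chow. The gap between the highest high-fat array and the lowest chow array exceeded the whole high-fat range. The means of 5.46 ± 0.07 (SD, n = 5) and 6.05 ± 0.21 (SD, n = 3) differed by −0.59 ± 0.14 (SE; 95% interval −0.91 to −0.27; 1.51-fold lower). The adjusted p was the smallest of the group and missed the threshold (limma, unadjusted p = 0.00262, adjusted p = 0.0622). With normexp it was −0.29 (limma adjusted p = 0.278), and with normexp and quantile normalization −0.17 (0.294). It passed in only 2 of the other settings tried. With arrays weighted by their agreement with the fit, the difference was −0.60 (limma adjusted p = 0.0226), where 9.16% of all features passed, 3.17% on the lower side. With only the high-fat arrays of slide 2 it was −0.63 (limma adjusted p = 0.0431), where 12.7% passed, 1.67% on the lower side. Pemt passed in the first of these (−0.70, limma adjusted p = 0.0341) and not in the second (adjusted p = 0.0741).

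Cth was 3.85, 3.74, 3.47, 3.38 and 3.36 under high-fat diet and 4.03, 4.03 and 3.93 under chow. The chow arrays were close together here and the high-fat arrays spread more, with high-fat array 1 near the chow level. The difference was −0.44 ± 0.16 (SE; 95% interval −0.81 to −0.07; 1.35-fold lower; limma, unadjusted p = 0.0257, adjusted p = 0.184). Cbs minus Cth differed by −0.15 between diets (exact permutation test, two-sided, p = 0.375, adjusted 0.5), with overlapping arrays.

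Fold changes over all features differed with their signal level. Ranked by mean signal and divided into 10 groups of equal size, the features had median fold changes of 0.51, 0.16, 0.07, 0.05, 0.03, 0.02, −0.04, −0.08, −0.14 and −0.24 from the dimmest to the brightest. Bhmt lies at the 99.96 percentile of mean signal, Mat1a at 98.9, Ahcy and Cbs at 98.7, Gnmt at 97.9, and Cth and Pemt at 93.5, while Mat2a lies at 60.2 and Mtr at 29.4. Among the 7 bright enzymes, all in the brightest 10%, the difference was largest in size for Pemt and smallest for Mat1a. The part of signal level in the enzymes' differences was not tested. Quantile normalization, which gives each array the same distribution of values, brought the median of the brightest 10% from −0.24 to −0.04 and that of the 9 enzymes from −0.44 to −0.09. Under it the differences were −0.36 for Cbs (limma adjusted p = 0.133), −0.40 for Gnmt (0.276), −0.46 for Pemt (0.183) and −0.25 for Cth (0.383). Bhmt was at −0.09 and Ahcy at −0.07, and Mat1a was at 0.14, above 0. In that setting 1 of the 9 genes, Cbs, still had every high-fat array below every chow array (11.1%), against 9.54% of all features and 13.5% of the brightest 10%.

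**Figure D3:**
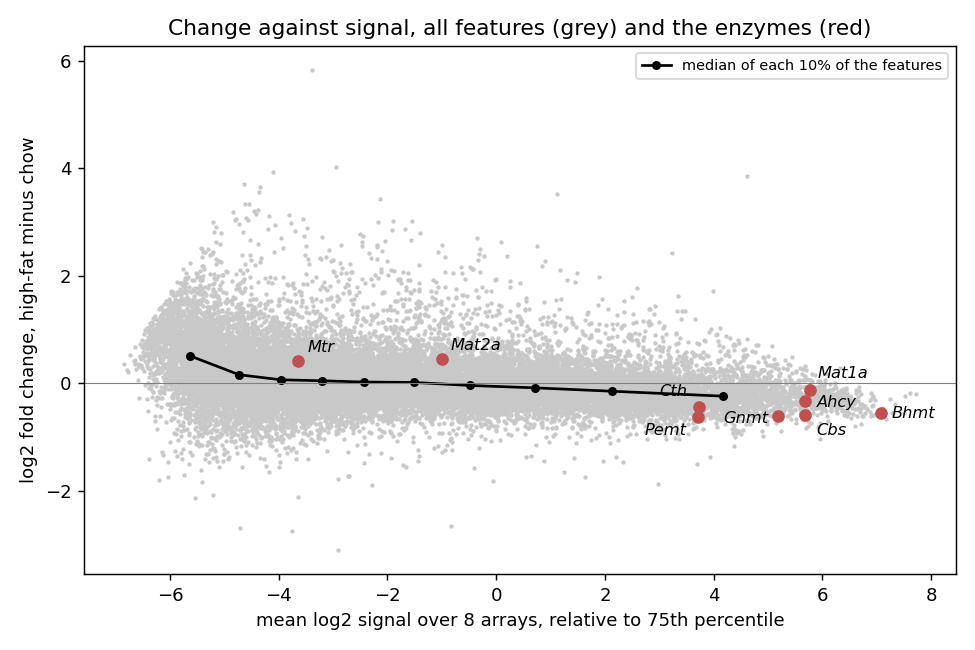
Each grey point is a feature, with its mean log2 signal over the 8 arrays on the x axis and its log2 fold change (high-fat minus chow) on the y axis; the enzymes are red and the black line joins the medians of 10 groups of features ranked by signal. The line runs from 0.51 at the dim end to −0.24 at the bright end, and the 7 bright enzymes lie below 0 where the line does too.

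**Figure D4:**
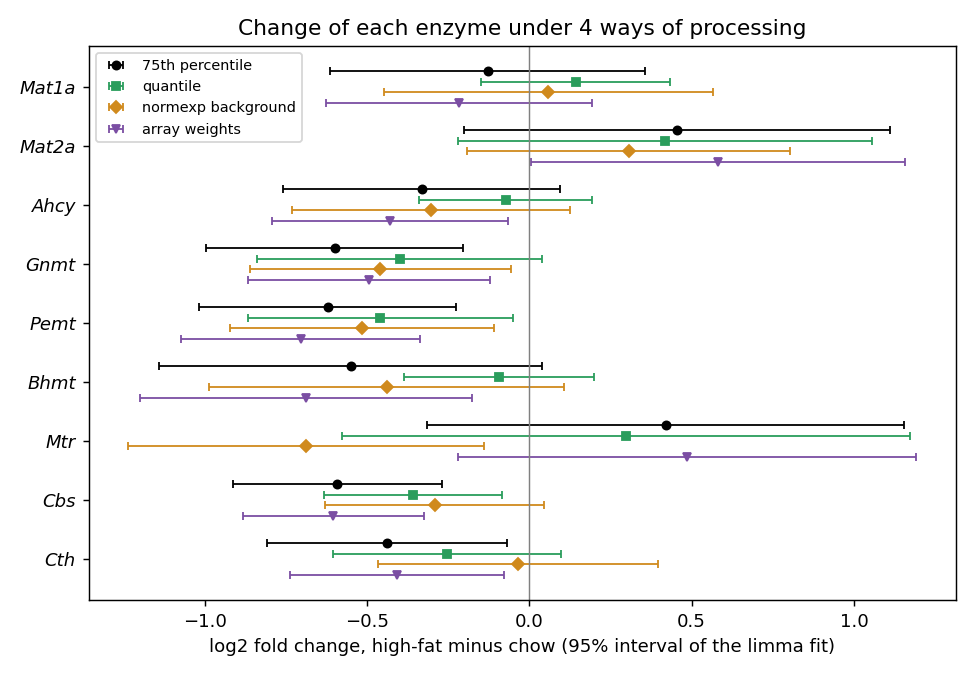
The x axis gives the log2 fold change (high-fat minus chow) of each of the 9 enzymes, with a bar for the 95% interval of the limma fit, under 75th percentile scaling (circles), quantile normalization (squares), normexp background correction (diamonds) and array weights (triangles). Pemt lies below 0 under each, from −0.46 to −0.70, and so do Ahcy, Bhmt, Gnmt, Cbs and Cth. Mat1a lies on both sides of 0, and Mtr moves from 0.42 to −0.69 with normexp.

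Between the slides that hold high-fat arrays, most of the enzymes differed less than between diets. This does not cover the slide of the chow arrays, whose part in the difference between diets cannot be measured. The slide 2 mean minus the slide 1 mean was −0.10 for Cbs, −0.04 for Pemt, −0.09 for Cth and 0.16 for Gnmt. It was larger for Mtr (−0.43), Ahcy (−0.37), Mat1a (−0.30) and Mat2a (0.26), and −0.11 for Bhmt. For Mat1a, Ahcy and Mtr the gap between slides was of the size of, or larger than, the difference between diets. Against chow, slide 1 by itself gave −0.70 for Gnmt, −0.53 for Cbs, −0.60 for Pemt and −0.38 for Cth, and slide 2 by itself gave −0.53, −0.63, −0.64 and −0.47. Since no arrays overlap in these 4, their direction was fixed in either comparison. With slide as a random block, no enzyme passed, the smallest adjusted p being 0.673 for Cbs (limma).

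At this scaling the enzymes followed a few shared patterns across arrays. Mat1a, Ahcy and Bhmt were each lowest in chow on array 2 and highest on array 3, whereas both Mat2a probes showed the reverse. Within the high-fat arrays, Mat1a and Ahcy were highest on arrays 4 and 1 and lowest on array 5, where the brighter Mat2a probe was highest. These orders changed in part under quantile normalization. There Mat1a and Ahcy were both highest on high-fat array 3, and Ahcy was lowest in chow on array 1. The SD over the chow arrays (n = 3) without quantile normalization was 0.44 for Mat1a, 0.28 for Ahcy and 0.63 for Bhmt. Under quantile normalization it was 0.21, 0.05 and 0.16, and for the brighter Mat2a probe it went from 0.62 to 0.61. Pearson's r, as a description, was taken over the 8 arrays without quantile normalization. It was −0.85 between Mat1a and Mat2a, 0.86 between Mat1a and Ahcy and 0.83 between Mat1a and Bhmt. Over the 5 high-fat arrays alone r was −0.59, 0.96 and 0.51 for these pairs. The points share slides and the scaling of each array, so r holds the difference between slides as well. Of 10711 genes above background on all arrays, those with the pattern most like Mat1a were Adarb1 (r = 0.987), Eef1a1 (0.984), Apoe (0.978), G6pc1 (0.964) and Ndrg2 (0.963), over the same 8 arrays. Ahcy ranked 111 and Bhmt 179 in likeness to Mat1a, and Mat2a ranked 10682, near the opposite end. All these r values and ranks are without quantile normalization, and the part of the scaling in them was not tested.

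The genes around the cycle were taken as 6 lists with 75 different genes, of which 63 have a matched probe and 62 were tested. Of the 62, 0 rose and 1 fell at an adjusted p under 0.05 (limma), against 3.07% of all features higher and 0.490% lower. At an unadjusted p under 0.05, 3 were higher and 10 lower, against 10.8% and 9.37% of all features. Of the 3, Asmt was well above background on 5 high-fat arrays and 1 chow array. Fold changes were below 0 for 46 of the 62, and their median was −0.16. In the list for methionine synthesis and the folate cycle (16 tested) the median was −0.16, for choline and betaine oxidation (6 tested) −0.21, and for phosphatidylcholine and phosphatidylethanolamine synthesis outside Pemt (8 tested) −0.13. It was −0.20 for SAM and SAH handling, polyamines and salvage (12 tested) and −0.36 for cysteine and sulfide breakdown with taurine synthesis (10 tested), with 0 passing in either direction in each of these 5 lists. The list of other small-molecule methyltransferases and creatine synthesis (10 tested) had a median of 0.04 and held the gene that passed.

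That gene was Nnmt (nicotinamide N-methyltransferase), which spends SAM to methylate nicotinamide. Its values were 2.73, 2.75, 2.97, 3.22 and 3.17 under high-fat diet and 3.64, 4.20 and 4.18 under chow. Every high-fat array was lower than every chow array, and the difference of −1.04 ± 0.20 (SE) made the mean 2.05-fold lower (limma adjusted p = 0.0282). Its probe lies at the 91.8 percentile of mean signal, within the brightest 10% of features. In that 10%, 23.0% of features had every high-fat array below every chow array, and 0.962% passed as lower. Nnmt was close to the threshold: it passed in 4 of the 8 fits that left out an array, and the call was lost without high-fat array 2, high-fat array 3, chow array 2 or chow array 3 (limma adjusted p from 0.0349 to 0.110 over the 8). Quantile normalization gave −0.87 (limma adjusted p = 0.0507), the authors' value table −0.87 (0.0483) and slide as a random block an adjusted p of 0.485.

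Creatine synthesis is the other large use of SAM in liver, through Gamt, while Gatm makes its precursor. Gamt read 4.54 ± 0.40 (SD, n = 5) under high-fat diet and 5.18 ± 0.33 (SD, n = 3) under chow, a difference of −0.65 ± 0.26 with overlapping arrays (limma adjusted p = 0.213). Gatm had 2 probes, at 0.23 and 0.66, and neither passed. Bhmt2, which methylates homocysteine from S-methylmethionine, was at −0.31 ± 0.14 (limma adjusted p = 0.263) without overlap, and its dimmer probe was at −0.28. Mtrr, the reductase that keeps Mtr active, was at −0.15, and its other probe at 0.05. Betaine is made by Chdh, at −0.31, and the methyl groups left on it are removed by Dmgdh, at 0.00, and Sardh, at −0.34 without overlap. None of these passed.

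Among genes that regulate or drain SAM and SAH, Mat2b, the regulatory subunit of the Mat2a enzyme, was at −0.16 and Amd1, which commits SAM to polyamines, at −0.19. Ahcyl1, a relative of Ahcy, was at −0.31 with its bright probe and 1.02 with a dim one that was above background on 6 arrays, so its probes disagreed in direction, and neither passed. Downstream of Cth, Cdo1 oxidises cysteine and was at 0.22 ± 0.18 (limma adjusted p = 0.538). Csad then makes hypotaurine, and it had the largest difference of the 62 genes. Csad was 2.79, 1.21, 0.61, 2.82 and 1.11 on the high-fat arrays and 0.21, −1.21 and −1.55 on the chow arrays. Its high-fat arrays were all higher than the chow arrays but spread by slide, with arrays 1 and 4 of slide 1 highest. The difference of 2.56 ± 0.62 (SE), 5.88-fold, did not pass (limma adjusted p = 0.0666). It passed under quantile normalization (2.54, adjusted p = 0.0484) and in the authors' value table (adjusted p = 0.0442). Without each array in turn the adjusted p ran from 0.0617 to 0.221. Got1, a transaminase of cysteine breakdown that was chosen after its values were seen, was at −1.04 ± 0.28 without overlap (limma adjusted p = 0.0837).

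**Figure D5:**
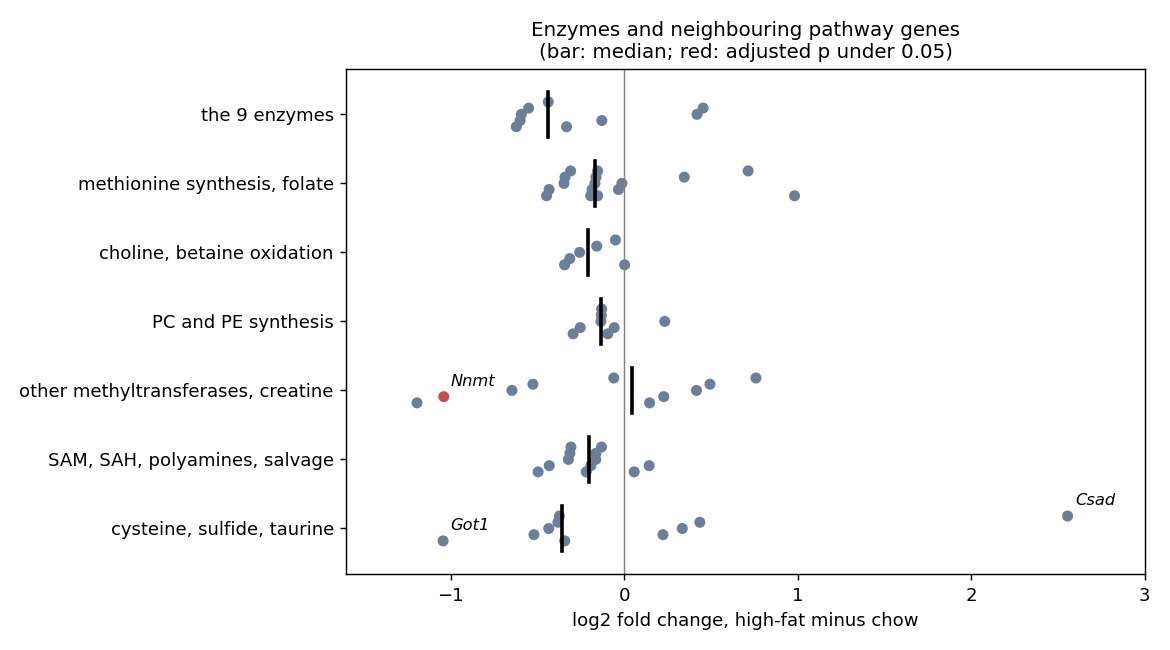
Points are genes, grouped in rows by list, with the log2 fold change (high-fat minus chow) on the x axis, a bar for the median of each row, and red for an adjusted p under 0.05. Nnmt, at −1.04, is the single red point. Csad stands alone at the right at 2.56, and the 9 enzymes have the lowest median of the rows, at −0.44. Signal level was not matched between rows. Of the 9 enzymes, 7 lie in the brightest 10% of features, where the median was −0.24.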

How the data were processed

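Total RNA from 8 rat liver samples (5 high-fat diet, 3 chow, grouped by the sample titles) was read on single-colour Agilent arrays with Agilent Feature Extraction 11.0.1.1, per the submitters' processing notes. Per the file headers, the deposited scanner files hold the processed signal as intensity, background-subtracted and not scaled between arrays, with median signal, median background and 0 or 1 marks for each spot. The authors' deposited value table holds log2 values; how it was made is not given in the sources used here.

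Control and outlier-marked spots were dropped, and 0 were saturated. The log2 processed signals were averaged by probe and set relative to the array's 75th percentile. Probes needed 0.5 or more of their spots well above background in 3 or more of 8 arrays (25629 of 30367 kept). Symbols came from RefSeq accessions through a GRCr8 table (18005 probes matched; the array design uses another build, so probe positions are not given). The probe with the highest mean stood for a gene (22873 features, 13340 with a symbol). No 2 arrays held identical values.

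Diets were compared with limma 3.58.1 (lmFit, eBayes, two-sided, R 4.3.3), with p-values adjusted by Benjamini-Hochberg across all tested features (threshold 0.05). Single values used exact permutation tests over all splits (Python 3.11.15, numpy 2.4.6). The 95% intervals used t quantiles from scipy 1.17.1. The number of arrays limits the precision. The fit was tested on simulated data. Alternatives were other background corrections (normexp, offset 50) and normalizations, the authors' values, no filter, probe averaging, array weights, blocks, slides and each array left out. The members, lists and named genes (the 9 enzymes, 14 neighbours named whatever their p, up to 3 further passing genes per list, and the 5 genes most like Mat1a) were chosen with earlier results of these data known. Of the neighbours, 1 is not reported here. The promoters shown were chosen after the values were seen.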

Additional observations from a re-analysis of the deposited data

Results flagged for a closer look

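The brighter Mat2a probe on the high-fat arrays had 1 array far from the others: high-fat array 5, at −0.33, lay above the remaining 4, at −1.08 to −0.87. Its gap to the nearest of them was 0.726 of the whole range, above Dixon's critical value of 0.71 for 5 samples. This was 1 of 29 groups examined, and chance marks about 1 in 20. Without high-fat array 5 the difference of this probe between diets was 0.33.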

How the results depend on the processing

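Enzymes that passed were 0 in the gene and the probe fit alike, also with each array left out, except 2 with array weights (Cbs and Pemt) and 1 with the high-fat arrays of slide 2 only (Cbs). The 815 features passing overall became 149 with normexp, 2115 with normexp and quantile normalization, 84 with slide as a random block (correlation 0.451), 2095 with array weights, 1979 and 2902 with the high-fat arrays of slide 1 or slide 2 only, and 374 to 789 with 1 array left out. Neighbouring genes that passed as higher were 1 with quantile normalization (Csad), 2 with normexp and quantile normalization (Csad, Tyms), 1 in the authors' value table (Csad), 3 with slide 1 only (Coq5, Csad, Tyms), 1 with slide 2 only (Csad), and 0 to 1 with 1 array left out. Those passing as lower (Nnmt above) were 0 with quantile normalization, normexp, slide as a random block and slide 1 only, 2 with normexp and quantile normalization (Aldh1l2, Nnmt), 2 with array weights (Nnmt, Got1), and 0 to 1 with 1 array left out. The cause of these shifts was not tested.

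Signs turned as follows among the values given, none in a called value. Mat1a was at 0.14 with quantile normalization, 0.059 with normexp, 0.20 with both, 0.14 in the authors' table, 0.049 with slide 1 only, and −0.36 to 0.072 with 1 array left out. Normexp moved the median of all features to −0.29; with it Mtr was at −0.69 (−0.40 relative to that median), the dimmer Mat2a probe at −0.22, Dmgdh at −0.15, and Bhmt minus Mtr at 0.25. Relative to that median Cth was at 0.25 and Cbs at −0.0024. Both lie in the brightest 10%, whose median with normexp was −0.12, while Cth itself was at −0.035 and Cbs at −0.29. Normexp with quantile normalization put Mtr at −0.24, Cth at 0.035, Dmgdh at −0.15 and Bhmt minus Mtr at 0.10. With slide 1 only, Mat2b was at 0.11, Chdh at 0.057, Dmgdh at −0.24, Amd1 at 0.40 and Gnmt minus Pemt at −0.10. Dmgdh was at −0.024 with the slide block and −0.043 with array weights, and Ahcyl1 at 0.36 as the mean of its probes. With 1 array left out Dmgdh ran from −0.21 to 0.10, Amd1 from −0.39 to 0.057, and Gnmt minus Pemt from −0.25 to 0.30. The median of the other methyltransferases and creatine list (0.04) ran from −0.20 to 0.11 with 1 array left out, and was −0.12 with normexp, −0.06 with no filter, −0.17 with the replicate block, −0.40 with array weights and −0.12 with slide 2 only. Signal over background limits the dim probes: the dimmer Mat2a probe was above it on 7 arrays and the dim Ahcyl1 probe on 6.

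Replicate numbers did not pair the samples (correlation of deviations 0.045, 0.035 and 0.065; 2 of 3 matched their own number best), and the replicate block left 4 features, 0 enzymes and 0 neighbouring genes passing, with 3 numbers shared.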
